A study of Mus musculus with 8 samples.

Results

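Antioxidant defence genes were followed here in the cochlea of the mouse: 10 genes, Sod1, Sod2, Sod3, Cat, Gpx1, Gpx4, Prdx1, Prdx3, Nqo1 and Hmox1, chosen by name as enzymes that detoxify superoxide, peroxides and quinones and are linked to hair cell protection. All 10 were found, each once, among the 78317 genes of the expression table. The study sequenced polyadenylated RNA from the basilar membrane, the cochlear strip on which hair cells and supporting cells sit, of mice at postnatal day 6, using 1 µg of total RNA for each stranded library. The 8 libraries form 2 groups of 4. The libraries titled hete carry the genotype tag WT, and those titled homo carry the tag Dnajc17 cKO, a conditional knockout of a J-domain protein gene that the study's title connects with RNA splicing. The sources used here do not say whether hete animals carry 1 mutant allele, which driver made the deletion or whether each library came from its own animal; p-values therefore reflect library-to-library spread, part of which may be technical. In a whole-tissue sample, fewer cells of a type and less RNA per cell cannot be told apart.

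Oxygen metabolism produces superoxide, which superoxide dismutases turn into hydrogen peroxide. Catalase, glutathione peroxidases and peroxiredoxins then remove the peroxide. Of these, the glutathione peroxidases and peroxiredoxins use glutathione or thioredoxin kept reduced by NADPH. Hair cells, above all outer hair cells of the cochlear base, are known for their sensitivity to reactive oxygen species formed after noise, aminoglycosides and cisplatin. NRF2, encoded by Nfe2l2, is the transcription factor that switches on many of these enzymes through antioxidant response elements, and KEAP1 holds it in check.

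Values are TPM, transcripts per 1000000, a scale that corrects for transcript length, so levels of different genes may be set side by side. Library sums lay within 1 TPM of 1000000, and 28159 to 28969 genes were above 0 in a library; TPM keeps no record of read numbers, so depth is unknown. Dnajc17 itself was at 26.51, 25.45, 25.09 and 22.06 TPM in hete and 29.33, 27.65, 31.08 and 18.04 TPM in homo replicates 1 to 4. Homo replicates 1, 2 and 3 lay above every hete library and homo replicate 4 below every one, so 3 of the 4 libraries labelled homo run against a loss of this transcript (log2 fold change 0.07, SE 0.15, adjusted p = 0.969 by limma-trend). Which part of the gene was deleted, and in which cells, is not given in the sources used here, so the labels are not checked by these values, and each direction below is between libraries as labelled. Markers of the labelled tissue were present, led by Tectb of supporting cells (mean 4402 TPM) and Ocm of outer hair cells (mean 133.6 TPM). Markers of other cells were present too, among them the globin gene Hbb-bs (mean 1546 TPM) and Dct of melanocytes (mean 798.8 TPM).

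None of the 10 antioxidant genes passed the test between homo and hete. The test was limma-trend on log2(TPM + 1), with p adjusted by Benjamini-Hochberg over the 17811 genes that had a mean of at least 1 TPM, a filter that all 10 antioxidant genes passed. An adjusted p under 0.05 counted as called, which 0.0112% of all tested genes reached, 0.00561% with homo higher and 0.00561% with homo lower, 2 genes in number. The smallest adjusted p among the 10 was 0.732. At an unadjusted p under 0.05, 1 of the 10 was lower in homo and none higher, where 6.05% of all tested genes lay under that limit, 2.49% lower and 3.56% higher in homo. The difference was negative for 7 of the 10 genes and positive for 3, with a median log2 fold change of homo over hete of -0.07, beside 0.02 over all tested genes. Summed, the 10 genes took 0.240 to 0.257% of total TPM in hete libraries and 0.239 to 0.243% in homo libraries, so these ranges overlapped.

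**Figure D1:**
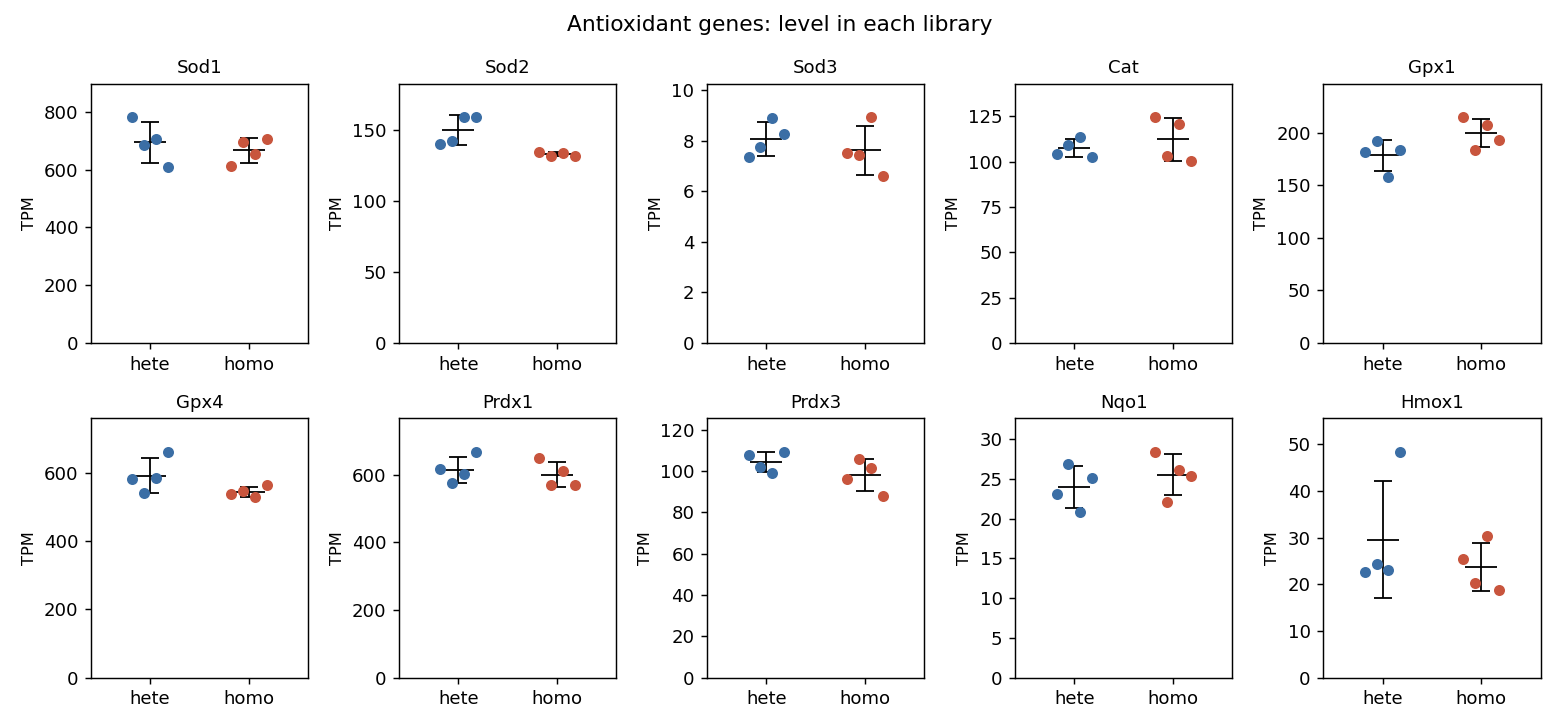
Level of each antioxidant gene in TPM (vertical axes, each from 0) in the 4 hete and 4 homo libraries; each point is a library, in the order of replicates 1 to 4 from left to right, and the black bars are the mean and SD. The homo points of Sod2 lie at 131.63 to 134.41 TPM, below all hete points, and hete replicate 4 stands apart for Hmox1 at 48.28 TPM.

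Most of the antioxidant genes were abundant, and most varied less between libraries than the median of all tested genes. Their means over the 8 libraries ran from 7.86 TPM for Sod3, higher than 37.5% of tested genes, to 680.7 TPM for Sod1, higher than 98.9%, and 7 of the 10 were among the highest 10% of tested genes. In hete the order from the highest mean down was Sod1, Prdx1, Gpx4, Gpx1, Sod2, Cat, Prdx3, Hmox1, Nqo1 and Sod3. Neighbours whose ranges over libraries overlapped in hete were Sod1 and Prdx1, Prdx1 and Gpx4, Gpx1 and Sod2, Cat and Prdx3, and Hmox1 and Nqo1. Ranges do not compare genes within a library, and Prdx1 read above Gpx4 in each hete library. Differences between genes were not tested. The order in homo was the same except that Nqo1 stood above Hmox1, and there the overlapping neighbours were Sod1 and Prdx1, Cat and Prdx3, and Nqo1 and Hmox1. The coefficient of variation (SD over mean) of TPM was under the median of tested genes for 9 of the 10 in hete (median 12.6%) and for 8 of the 10 in homo (median 11.2%). It was highest for Hmox1, at 42.5% in hete and 21.9% in homo. Spread depends on level. The median SD within groups, in log2, was 0.162 over all tested genes. It was 0.138 over those with a mean of at least 5 TPM. The members were not compared with genes of similar level.

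The superoxide dismutases act first in the chain, each in its own compartment. Sod2 (ENSMUSG00000006818, chromosome 17), the manganese enzyme of the mitochondrial matrix, was the 1 member whose groups did not overlap. In hete replicates 1 to 4 its TPM read 140.04, 141.83, 158.74 and 158.76, against 134.41, 131.63, 133.48 and 131.78 in homo replicates 1 to 4. All 4 homo libraries lay below all 4 hete libraries, and hete replicates 3 and 4 were the farthest above. The mean was 149.8 ± 10.3 TPM in hete and 132.8 ± 1.35 TPM in homo (SD, n = 4 each). By limma-trend its log2 fold change came to -0.17 with an SE of 0.06 (95% bounds -0.31 and -0.04, adjusted p = 0.732), so Sod2 did not pass the test over all genes. Groups without overlap were found for 3.99% of all tested genes, 1.41% with homo lower, so no share is read from the 1 of 10 members. The homo libraries were close together, with a coefficient of variation of 1.02% against 6.88% in hete. Leaving out each library in turn moved the log2 fold change between -0.20 and -0.14.

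Summed TPM of 3 cell type marker lists did not overlap between groups either, and each overlapped once its most abundant gene was left out. The 10 hair cell markers summed to 345 to 507 TPM in hete and 247 to 340 TPM in homo, and 7 of the 9 that were tested were lower in value. Without Ocm the other 9 overlapped, at 188 to 244 TPM in hete and 190 to 247 TPM in homo. The 10 supporting cell markers went the other way, at 5571 to 6245 TPM in hete and 6519 to 6987 TPM in homo. Without Tectb, which encodes a protein of the tectorial membrane, the groups overlapped (1724 to 1886 and 1855 to 2162 TPM), and so they did without Tecta as well, at 1248 to 1595 and 1240 to 1504 TPM. Without Tectb and Gjb2, its 2 most abundant genes, the list did not overlap (1064 to 1206 and 1251 to 1400 TPM). The 7 neutrophil markers were at 5.69 to 8.49 TPM in hete and 11.2 to 58.0 TPM in homo, with Elane and Mpo near 0, and without S100a9 they overlapped, at 4.40 to 7.13 and 5.51 to 24.9 TPM. In value, 9 of 10 supporting cell markers and all 4 tested neutrophil markers were higher in homo. Lists whose sums overlapped leaned to a side too. All 8 neuron markers and 6 of 7 glia markers were higher in homo. All 6 tested erythroid markers and all 4 stria marginal cell markers were lower. None of these marker genes passed the test in the same fit. Sums for macrophages, erythroid cells, melanocytes, stria marginal cells, neurons, glia, mesenchyme and vessels overlapped between groups. These sums without the leading genes were chosen after seeing the data. The part of any of these cells in the values of Sod2 was not tested.

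The Sod2 promoter is shown because Sod2 is the member whose groups separated. It is the stretch of 250 bases before the RefSeq start, build GRCm38.p6, chr17:13007589-13007838, plus strand, with each GGGCGG, the core of the GC box that SP1-type factors bind, in capitals.
Sod2: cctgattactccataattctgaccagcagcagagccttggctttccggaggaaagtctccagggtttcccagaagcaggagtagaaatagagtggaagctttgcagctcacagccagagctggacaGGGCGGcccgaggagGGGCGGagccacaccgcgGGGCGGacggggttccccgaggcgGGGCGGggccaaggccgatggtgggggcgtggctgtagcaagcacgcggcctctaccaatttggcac
The stretch holds 4 such letter runs, all on the plus strand, and 63.6% G and C, where the median over the same 250 bases of all promoter windows is 52.4%. On either strand, GGGCGG was in 35.7% of the 32851 RefSeq promoter windows of 300 bases (250 before to 50 after the start). It was in 10 of the 11 windows of the 8 antioxidant genes that have one, and in a window of each. Gpx4 has 4 of the 11, and some of these overlap, so the same bases are counted more than once. Windows of similar G and C content were not compared. A match is a run of letters, not a bound site. The windows of Sod3 and Hmox1 are not in the table used.

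Sod1 (ENSMUSG00000022982, chromosome 16), the copper-zinc enzyme of the cytosol, was the most abundant member. Hete replicates 1 to 4 read 780.41, 683.68, 707.18 and 607.29 TPM, and homo replicates 611.98, 695, 652.85 and 706.92 TPM. All homo libraries lay inside the hete range, with hete replicate 1 the highest and hete replicate 4 the lowest of all 8. Fitted over all genes with limma-trend, the log2 difference came out at -0.06 (SE 0.09, 95% bounds -0.25 and 0.14, adjusted p = 0.952), an interval of 0.843 to 1.10 on the scale of fold. The sign depended on 1 library, since the value was 0.00 and positive without hete replicate 1; it was -0.12 without hete replicate 4. Ccs, which loads copper into SOD1, was at 87.5 TPM in hete and 80.1 TPM in homo (log2 fold change -0.12, SE 0.10), a gene named for its role.

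Sod3 (ENSMUSG00000072941, chromosome 5), the secreted enzyme of the extracellular matrix, was the lowest member. It stood at 7.38, 7.77, 8.92 and 8.27 TPM in hete and 7.51, 7.43, 8.93 and 6.63 TPM in homo replicates 1 to 4. Replicate 3 was the highest in both groups, and the groups overlapped. In log2 terms homo stood at -0.08 relative to hete (SE 0.11, 95% bounds -0.32 and 0.16, adjusted p = 0.944 by limma-trend), with a range from -0.15 without homo replicate 3 to -0.02 without homo replicate 4.

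The enzymes that remove hydrogen peroxide showed differences in both directions, none past the test. Cat (ENSMUSG00000027187), the catalase of peroxisomes, lies on chromosome 2, as Dnajc17 does. Its level was 104.45, 109.21, 113.46 and 102.7 TPM in hete and 124.4, 103.38, 120.72 and 100.53 TPM in homo. Homo replicates 1 and 3 lay above every hete library and homo replicate 4 below every hete library. By limma-trend its log2 fold change came to 0.06 with an SE of 0.08 (95% bounds -0.12 and 0.24, adjusted p = 0.945), and ranged from 0.01 without homo replicate 1 to 0.11 without homo replicate 4.

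Gpx1 and Gpx4 encode selenium-containing glutathione peroxidases: GPX1 reduces hydrogen peroxide in the cytosol and mitochondria, while GPX4 reduces lipid peroxides in membranes and is the enzyme that holds back ferroptosis. Gpx1 (ENSMUSG00000063856, chromosome 9) had 182.21, 192, 157.82 and 184.04 TPM in hete and 214.83, 184.28, 207.37 and 193.51 TPM in homo. Homo replicates 1, 3 and 4 lay above every hete library, and homo replicate 2 lay among them. Gpx1 had the largest positive log2 fold change of the 10 at 0.16, with an SE of 0.08 (95% bounds -0.01 and 0.33, adjusted p = 0.855 by limma-trend), and the value was 0.10 without hete replicate 3.

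Gpx4 (ENSMUSG00000075706, chromosome 10) went the other way in value. It had 581.94, 539.45, 584.46 and 660.12 TPM in hete and 538.81, 545.81, 527.91 and 563.12 TPM in homo. Hete replicate 4 was the highest, and hete replicate 2 lay inside the homo range. Fitted over all genes with limma-trend, the log2 difference came out at -0.12 (SE 0.07, 95% bounds -0.27 and 0.04, adjusted p = 0.87), and it was -0.06 without hete replicate 4. Whether Gpx1 and Gpx4 differ from each other in their response was not tested.

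Peroxiredoxins reduce peroxides through a reactive cysteine that thioredoxin restores. Prdx1 (ENSMUSG00000028691, chromosome 4), the cytosolic form, had 618.39, 575.43, 601.13 and 666.97 TPM in hete and 648.78, 571.18, 610.72 and 571.26 TPM in homo. Homo replicates 2 and 4 were the lowest of the 8, and hete replicate 4 was the highest. In log2 terms homo stood at -0.04 relative to hete (SE 0.07, 95% bounds -0.19 and 0.12, adjusted p = 0.963 by limma-trend), and it ran from -0.07 without homo replicate 1 to 0.00, and positive, without hete replicate 4.

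Prdx3 (ENSMUSG00000024997, chromosome 19), the form of the mitochondrial matrix, had 107.62, 101.93, 98.86 and 109.05 TPM in hete and 96.25, 105.97, 101.29 and 87.8 TPM in homo. Homo replicates 1 and 4 lay below every hete library, and homo replicates 2 and 3 among them. By limma-trend its log2 fold change came to -0.09 with an SE of 0.07 (95% bounds -0.25 and 0.06, adjusted p = 0.88), and without homo replicate 4 it was -0.04.

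Nqo1 and Hmox1 are the textbook targets of NRF2 in this set. Nqo1 (ENSMUSG00000003849, chromosome 8) encodes a quinone reductase that avoids the semiquinone step by transferring a pair of electrons at once. It had 23.09, 26.92, 20.89 and 25.08 TPM in hete and 28.36, 22.12, 26.17 and 25.36 TPM in homo. The groups overlapped, with homo replicate 1 the highest and hete replicate 3 the lowest. Fitted over all genes with limma-trend, the log2 difference came out at 0.09 (SE 0.10, 95% bounds -0.14 and 0.31, adjusted p = 0.93), and it ran from 0.02 without hete replicate 3 to 0.15 without homo replicate 2.

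Hmox1 (ENSMUSG00000005413, chromosome 8) encodes heme oxygenase 1, the inducible enzyme that breaks heme down to biliverdin, iron and carbon monoxide, and is high in macrophages that clear red cells. Hete replicates 1 to 4 read 22.52, 24.26, 22.95 and 48.28 TPM, and homo replicates 25.41, 20.3, 30.25 and 18.84 TPM. Hete replicate 4 stood alone above the other 7 libraries, and the other hete libraries lay inside the homo range. In log2 terms homo stood at -0.25 relative to hete (SE 0.26, 95% bounds -0.84 and 0.34, adjusted p = 0.918 by limma-trend), the largest of the 10 in size with the widest interval. It was -0.37 without homo replicate 3, and it rested on hete replicate 4, without which it was 0.00 (SE 0.15, adjusted p = 0.998 by limma-trend).

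Marker sums give the makeup of hete replicate 4 beside its Hmox1 level. The 10 macrophage markers summed to 309 TPM in that library and to 312 to 347 TPM in the other hete libraries. The 8 erythroid markers summed to 2500 TPM there, the lowest of the 8 libraries, where the others lay between 3144 and 5371 TPM. The same library had the highest sum of the 4 stria marginal cell markers (936 TPM), also without Slc12a2 (578 TPM). Its sums of the 5 melanocyte markers (1177 TPM) and the hair cell markers (507 TPM) were the highest too, led by Dct and Ocm. Without Dct it was at 149 TPM for melanocytes, below homo replicate 3 at 158 TPM. Without Dct and Pmel it was again the highest, at 74.7 TPM beside 72.3 TPM in homo replicate 3. Without Ocm it was at 229 TPM for hair cells, below hete replicates 2 and 3 and homo replicate 4. The part of any of these cells in the Hmox1 level of hete replicate 4 was not tested.

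**Figure D2:**
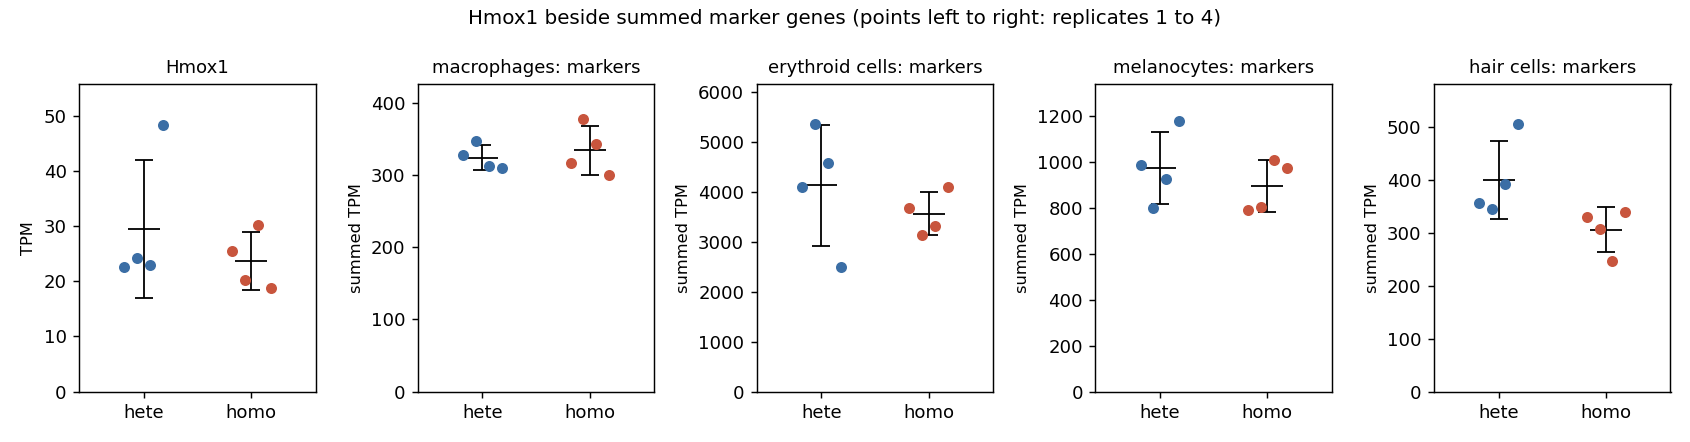
Hmox1 in TPM (left) and the summed TPM of macrophage, erythroid, melanocyte and hair cell markers in the 4 hete and 4 homo libraries; each point is a library, bars are the mean and SD, and vertical axes start at 0. Hete replicate 4, the point on the right of each hete group, is the highest library for Hmox1 (48.28 TPM), melanocyte markers (1177 TPM, led by Dct) and hair cell markers (507 TPM, led by Ocm) and the lowest for erythroid markers (2500 TPM).

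Each 95% interval describes the difference of 1 gene in TPM of the whole tissue, taken on its own and not jointly over the 10 genes. For 9 of the 10 genes the 95% interval lay within 0.8 to 1.26 on the scale of homo over hete fold, with the lowest bound at 0.803 for Sod3 and the highest at 1.26 for Gpx1. For Hmox1 the interval was wider, from 0.558 to 1.26. These folds are of TPM + 1, which understates the change of genes with low values such as Sod3. The bounds are for the whole tissue, and a difference within hair cells alone was not tested.

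**Figure D3:**
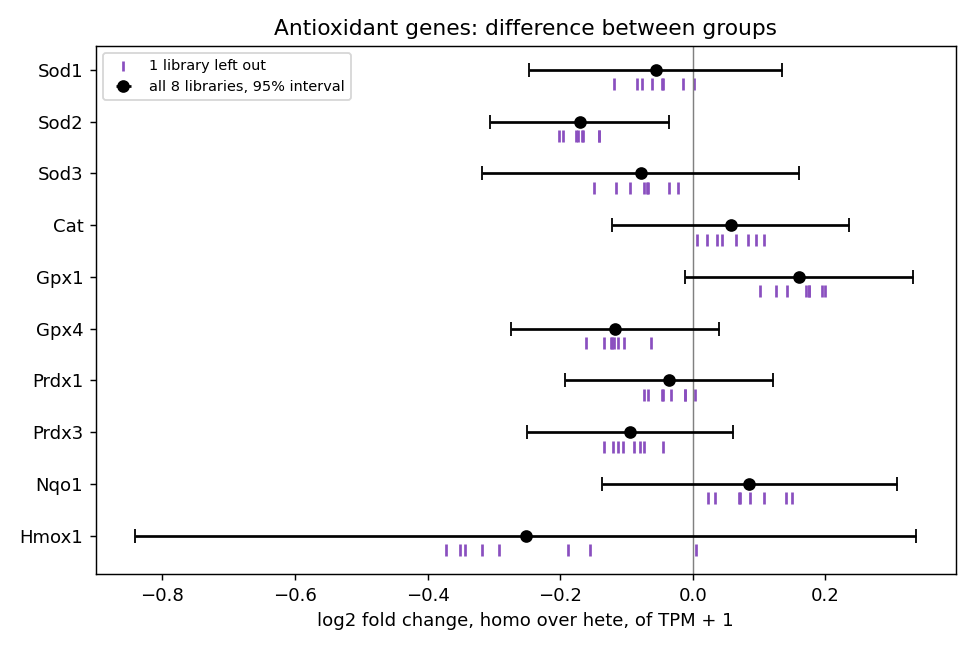
Log2 fold change of homo over hete of TPM + 1 (horizontal axis) for the 10 antioxidant genes; black points are the fit on all 8 libraries, with bars for the 95% interval, and purple ticks are the fits with 1 library left out. The interval of Sod2 alone lies to the left of 0 (-0.31 to -0.04, before adjustment over all genes), and the Hmox1 tick at 0.00 is the fit without hete replicate 4.

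A pair of promoter stretches are shown for the antioxidant response element, through which NRF2 is known to act. The letters searched were TGACNNNGC, the core of the element, on both strands of the same RefSeq windows. They were in 2 of 11 windows of the 8 members with one, those of Sod1 and Prdx1, and in 12.4% of all 32851 windows. Both matches are on the minus strand, so the capitals below read as the reverse complement of the core. Build GRCm38.p6, plus strand, chr4:116685456-116685485 for Prdx1, with the core 125 to 133 bases before the start, and chr16:90220696-90220725 for Sod1, 48 to 56 bases before the start.
Prdx1: cagggaaagcGCTGAGTCAtcccccgtagg
Sod1: gccaaggtggGCGTGGTCAgactcaggcct
Prdx1 and Sod1 were the 2 members with the highest mean levels, and neither passed the test (log2 fold changes -0.04 and -0.06). Gpx4, next at a mean of 567.7 TPM against 608 TPM for Prdx1, had no match. A link between a match and the level of a gene was not tested. The windows do not cover enhancers farther away, and the missing letters in the other windows say nothing of NRF2 there.

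Genes with near-identical copies could share reads. Transcripts of Gpx4, Prdx1 and Sod1 matched 2, 3 and 1 other genes with at least 90% identity over at least 200 bases, and none of these copies exceeded 0.71 TPM in any library. Sod2 shared a stretch of 200 to 210 bases with 11 other genes, at 90.4 to 93.2% identity. These include well-expressed genes such as Fubp1 and Cct6a, so reads from that stretch may not be separable. The matching transcripts of Fubp1 and Cct6a are retained-intron forms, whose own level is not given by the TPM of the gene. Some matches, such as Eapp and Qsox1, are on the opposite strand, and the libraries are stranded. No such match was found for the other 6 members.

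Other genes of the same pathways gave 0 calls. Lists with 85 genes in 8 roles were followed, of which 79 were tested; 34 were higher and 45 lower in value in homo, with a median log2 fold change of -0.02. At an unadjusted p under 0.05 there were 3, namely Txnip and Gstm1 higher and Gclm lower, which is 3 of 79 where 6.05% of all tested genes were under that limit. Named below are the 2 genes of each list with the smallest p.

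None of the 9 NRF2 regulators was called. Nfe2l2 itself was at 46.0 TPM in hete and 46.7 TPM in homo (log2 fold change 0.01, SE 0.09) and Keap1 at 39.1 TPM in both (0.00, SE 0.07), 2 genes given here for their role. Of the 9 regulators tested, those with the smallest p were Bach1, a repressor that competes with NRF2, at 10.92 ± 1.03 and 12.04 ± 0.79 TPM (SD, n = 4 each; 0.13, SE 0.09), and the small MAF partner Mafg, at 34.99 ± 7.01 and 31.49 ± 2.00 TPM (-0.13, SE 0.13). Hete replicate 4 held the highest Mafg value, 43.95 TPM, and without that library the log2 fold change of Mafg was -0.02, while without hete replicate 1 it was -0.24.

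Among 8 other peroxidases and Ccs, 7 of these 9 genes were lower in value. Prdx5, a peroxiredoxin found in mitochondria, peroxisomes and cytosol, stood at 215.4 ± 8.77 TPM in hete and 201.4 ± 4.38 TPM in homo (log2 fold change -0.10, SE 0.05). Prdx6, which repairs oxidised phospholipids, stood at 137.6 ± 9.76 and 155.4 ± 20.6 TPM (0.17, SE 0.10), and without homo replicate 1 its log2 fold change was 0.09.

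For glutathione, 9 of 10 listed genes were tested and 6 were lower in value. Gclm, the modifier subunit of the rate-limiting enzyme of glutathione synthesis, had 17.29, 20.05, 20.07 and 16.86 TPM in hete and 12.33, 16.44, 13.75 and 18.26 TPM in homo. Homo replicates 1, 2 and 3 lay below every hete library and homo replicate 4 among them (log2 difference -0.28, SE 0.12, adjusted p = 0.815 by limma-trend). Gclc, the catalytic subunit, was at -0.07 (SE 0.11), and Gsr, which reduces glutathione again, at 0.20 (SE 0.10).

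Of 12 thioredoxin and glutaredoxin genes, Txnip had the smallest p of all pathway genes. TXNIP binds reduced thioredoxin and blocks it, and its transcript is known to follow glucose supply. It had 334, 315.63, 340.53 and 290.23 TPM in hete and 443.18, 339.9, 420.61 and 411.27 TPM in homo. Homo replicates 1, 3 and 4 lay above every hete library, while homo replicate 2 lay just under hete replicate 3. By limma-trend its log2 fold change came to 0.33 with an SE of 0.09 (95% bounds 0.13 and 0.53, adjusted p = 0.631). Glrx2, a mitochondrial glutaredoxin, was at -0.16 (SE 0.09; -0.08 without hete replicate 1), and Txn1, the cytosolic thioredoxin, at -0.05 (SE 0.11).

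Of 13 glutathione transferases tested, Gstm1, which conjugates glutathione to electrophiles, was the only pathway gene whose groups did not overlap. It had 42.63, 46.58, 44.68 and 46.27 TPM in hete and 51.1, 49.86, 53.69 and 50.09 TPM in homo, so that all homo libraries lay above all hete libraries. Fitted over all genes with limma-trend, the log2 difference came out at 0.18 (SE 0.06, 95% bounds 0.05 and 0.31, adjusted p = 0.692), where groups without overlap and with homo higher were found for 2.58% of all tested genes. Gstm1 belongs to a cluster of similar genes, so reads may be split between them. Gsto1, an omega-class transferase, was at 0.22 (SE 0.11), and at 0.14 without homo replicate 1.

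Iron, NADPH and oxidase genes showed small differences too. Among 10 genes of heme, iron and metal handling, Fth1, the ferritin heavy chain, was at 1694 ± 102 TPM in hete and 1617 ± 101 TPM in homo (SD over 4 libraries each; log2 difference -0.07, SE 0.07). Slc40a1, the iron exporter ferroportin, was at -0.13 (SE 0.08). Among 9 genes of NADPH supply, Pgd and Tkt of the pentose phosphate pathway were at -0.05 (SE 0.06) and 0.07 (SE 0.07). With 1 library left out, Pgd ran from -0.08 (without homo replicate 3) to -0.03 (without homo replicate 2), and Tkt from 0.03 (without hete replicate 1) to 0.12 (without homo replicate 4). Of 12 listed NADPH oxidase genes, which form superoxide rather than remove it, 8 were tested, and Noxa1, an activator subunit, was at 0.31 (SE 0.20). Without hete replicate 4 the log2 differences of Noxa1 and Fth1 were 0.14 and -0.03, and Fth1 was at -0.10 without homo replicate 4. Nox3, the oxidase of the inner ear, was below the filter at 0.06 to 0.70 TPM.

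**Figure D4:**
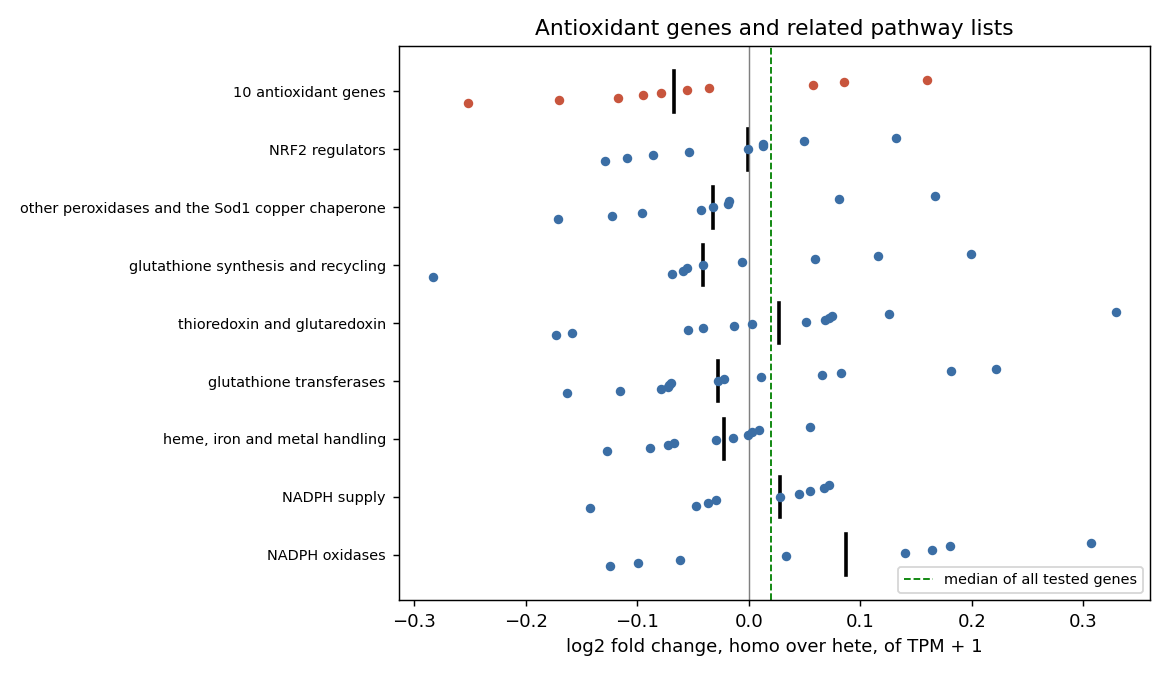
Log2 fold change of homo over hete of TPM + 1 (horizontal axis) for the 10 antioxidant genes (red) and the tested genes of 8 pathway lists (blue); each point is a gene, black bars are the list medians, and the dashed line is the median of all tested genes, 0.02. The points lie between -0.28 for Gclm and 0.33 for Txnip, and list medians between -0.07 and 0.09.

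The authors' deposited table of gene ontology enrichment rests on their own selection of genes. It covers 142 genes that the authors selected. None of the 10 antioxidant genes is listed in any of the 387 terms of the authors' deposited table.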

How the data were processed

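Polyadenylated RNA of the P6 basilar membrane was measured in 8 libraries, 4 hete and 4 homo, grouped by sample title. The deposited values are TPM; fastp, HISAT2, StringTie, RSEM, DESeq2 and the build GRCm39 are named without roles or versions, per the submitters' processing notes. The authors' deposited enrichment table gives a p-value and an adjusted p-value per term. A table of splicing event totals, which names no genes, was not used.

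Here log2(TPM + 1) of genes averaging 1 TPM or more was fitted with limma 3.58.1 (eBayes with trend and robust options, R 4.3.3), with genotype as the only term, and tested on simulated data. Intervals are 95%. The antioxidant genes and lists were chosen with earlier results of these data known. The genes named are the 10 antioxidant genes and, from each of 8 lists, the 2 with the smallest p; Nfe2l2, Keap1, Ccs, Gclc, Txn1 and Nox3 were added for their role after their values were seen, and 1 gene that the rule names is not reported here. Chromosomes come from GENCODE M21 (GRCm38) by gene ID, so no GRCm39 coordinates are given. Copies were searched with blastn 2.17.0. The sum of TPM carries no depth. Alternatives were other scalings, filters, a pseudocount of 0.1, eBayes without the robust option, a replicate block and each library left out.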

Additional observations from a re-analysis of the deposited data

Results flagged for a closer look

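In groups of 4 libraries, 52 sets of values (26 named genes in each group) were searched for a library far from the others, a search that flags about 1 in 20 sets by chance, and 2 were found. Hmox1 in hete replicate 4 was at 48.28 TPM, with the other hete libraries at 22.52 to 24.26 TPM. Slc40a1, the iron exporter, in hete replicate 3 was at 17.08 TPM, with the other hete libraries at 19 to 19.38 TPM.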

How the results depend on the processing

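None of the 10 antioxidant genes was called under any of the 15 alternatives, and no gene of the 8 pathway lists was either. The count over all tested genes was 2; it was 1 with no filter on low values, 1 with the replicate number as a block, and 1 to 5 with 1 library left out. Over the named genes and alternatives, 386 values kept their direction and their side of the threshold, and 3 changed sign. With 1 library left out the log2 fold change ran from -0.12 to 0.0021 for Sod1, from -0.073 to 0.0038 for Prdx1 and from -0.37 to 0.0041 for Hmox1, and the sign turned for Sod1 without hete replicate 1 and for the other 2 without hete replicate 4; fewer libraries enter these fits. Noxa1 was not tested with at least 5 TPM in 4 libraries. The median log2 fold change of all genes was 0.02, 0.00 with quantile normalization and 0.01 when rescaled over protein-coding nuclear genes. Across genes, same-numbered libraries did not deviate together (correlation -0.08, -0.03, 0.05 and 0.01 for replicates 1 to 4). Of 4 hete libraries, 1 correlated best with its own number. The mitochondrial share did have the same order in both groups, with replicate 4 the highest, then 1, 2 and 3. The labels do not say what a replicate number marks, and a shared litter or day was not tested. The count tests planned for count files were not run, as the values are TPM. TPM gives no depth, so no detection limit can be set for low genes such as Nox3.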

Other observations

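Mitochondrial genes taken from the 10 antioxidant genes and the pathway lists, NADPH supply included, were grouped after their values were seen, so the group gets no test. Of 9 such genes (Sod2, Prdx3, Prdx5, Glrx2, Glrx5, Txn2, Txnrd2, Idh2 and Nnt), 6 were lower and 3 higher in value in homo. Of the 17811 tested genes, 7779 were lower and 10032 higher. Gpx1, whose enzyme acts in mitochondria as well as cytosol, is not among the 9 and was higher in homo (log2 fold change 0.16). Beside Sod2, Prdx3, Prdx5 and Glrx2, given above, Txn2, the mitochondrial thioredoxin, was at 113 ± 5.28 TPM in hete and 112.0 ± 5.04 TPM in homo (SD over 4 libraries each; log2 difference -0.01, SE 0.06), and Txnrd2, its reductase, was at 0.13 (SE 0.10). Mitochondrially encoded transcripts took 9.72, 9.56, 9.15 and 10.4% of hete replicates 1 to 4, and 9.55, 9.17, 8.69 and 10.1% of homo replicates 1 to 4. The ranges overlapped, and homo was lower than hete at each replicate number. Whether the numbers mark pairs is not given, and this difference was not tested.

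Nnt, the mitochondrial transhydrogenase that makes NADPH, varied more between libraries than the other genes of NADPH supply. Hete replicates 1 to 4 read 18.62, 16.18, 30.18 and 25.53 TPM, and homo replicates 17.8, 25.44, 15.86 and 21.4 TPM. High and low libraries occurred in both groups. Part of this gene is deleted in the C57BL/6J strain; the strain of the animals is not given in the sources used here, and its part in these values was not tested.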
